A study of Mus musculus with 24 samples.

Results

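Homeobox genes encode transcription factors that bind DNA through a homeodomain, and the families outside the Hox clusters were followed here at their promoters by histone H3 trimethylated at lysine 4 (H3K4me3), a mark of active promoters, in the cerebral cortex of C57BL/6 mice. The members were defined by position and name: counted H3K4me3 regions that overlapped an annotated transcription start site (TSS) of a numbered Lhx, Irx, Nkx, Pou3f, Pou4f, Isl, Meis, Pbx, Otx, Gsx, Alx or Vax gene or of a numbered sine oculis-related gene such as Six4. Lhx6, Nkx2-1, Nkx2-2 and Otx2 were set aside. Among the 51 annotated genes reported here, 24 had a region, which gave 24 regions of the 17993 counted. All mice carried a FLAG-tagged histone H2B expressed from the Rosa26 locus under the CAG promoter. In the Rosa H2B-FLAG line (genotype Rosa CAG-H2B-FLAG), a germline Vasa-Cre had removed the stop cassette, so that nearly all cells carried the tag through development and adult life. In the Camk2a H2B-FLAG line (Rosa26 CAG-floxed-pA-H2B-FLAG/ CaMKCreERT2), the cassette was removed by a tamoxifen-inducible Cre under the Camk2a promoter, which is active in excitatory neurons of the forebrain. These were double-heterozygous males that had been injected with tamoxifen as young adults about a month before sampling, whereas sex, exact age and any tamoxifen treatment of the adult Rosa mice were not given in the sources used here. Lysates came from the cortex of 2 animals. Single ChIP was made with an anti-H3K4me3 antibody alone, and tandem ChIP (tChIP) with an anti-FLAG antibody followed by the anti-H3K4me3 antibody. Single ChIP therefore sampled chromatin of the whole tissue in both lines, and tChIP was enriched for chromatin that carried the tag. By the paper's mixing experiment, the share of tagged cells in the brain stood close to the lowest that the method could resolve. Some untagged chromatin may therefore remain in Camk2a tChIP. With 3 libraries in each of 4 groups, 12 of the 24 samples of the series were used.

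As background, homeodomain factors act in combination. LIM-homeodomain proteins (Lhx, Isl) work through the adaptor Ldb1, and TALE proteins (Meis, Pbx) bind DNA together with Hox and other homeodomain proteins. The sine oculis-related proteins (Six4 and Six5 among them) recruit Eya coactivators, and POU proteins (Pou3f, Pou4f) carry a second DNA-binding domain beside the homeodomain. Most of these genes pattern the embryo. Some stay active in mature cells, Lhx2 and Otx1 in cortical neurons and Nkx6-2 in myelinating oligodendrocytes among them. The promoters of developmental regulators that are silent in a tissue are often CpG-rich and may carry a little H3K4me3 beside the repressive mark H3K27me3.

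Total counts on the 17993 regions ranged from 6316125 to 8644574 in the Rosa single ChIP libraries and from 1457261 to 1828371 in the Rosa tChIP libraries. They ranged from 4063200 to 4233144 in the Camk2a single ChIP libraries and from 2709729 to 3049130 in the Camk2a tChIP libraries. The Rosa tChIP libraries were the shallowest, but several faint members held their lowest counts in single ChIP. Lhx8 held 8 to 14 counts in Rosa and 6 to 8 in Camk2a single ChIP, against 12 to 17 in Rosa and 10 to 18 in Camk2a tChIP. For Vax2 the lowest count, 5, was in Camk2a tChIP. Values are given as library-scaled counts (CPM), normalized by the trimmed mean of M-values (TMM) over all 12 libraries, in the order of replicates 1, 2 and 3. A region was called higher or lower where the Benjamini-Hochberg adjusted p over all 17993 regions was under 0.01 in edgeR's quasi-likelihood test, and fold changes are on the log2 scale with their standard error (SE). No region was filtered out, and all 24 members were tested in every comparison.

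The 150 bases upstream of the TSS are shown on the gene's strand, in the mm9 assembly, for the 3 members that rose the most in Camk2a tChIP among those with a window free of annotated exons and for the 3 members that fell the most. They show called promoters of either direction. No window is shown for Lhx3 and Pou4f3, which rose the most of all. CG dinucleotides are in capitals. The windows lay at chr2:38194651-38194800 (Lhx2, plus strand), chr7:16760579-16760728 (Meis3, plus), chr12:74214402-74214551 (Six4, minus), chr7:146768697-146768846 (Nkx6-2, minus), chr11:84338924-84339073 (Lhx1, minus) and chr6:83661108-83661257 (Vax2, plus), each of them inside the counted region.
Lhx2: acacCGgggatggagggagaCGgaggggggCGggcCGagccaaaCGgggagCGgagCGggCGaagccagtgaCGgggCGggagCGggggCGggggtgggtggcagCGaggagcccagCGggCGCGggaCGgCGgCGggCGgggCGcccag
Meis3: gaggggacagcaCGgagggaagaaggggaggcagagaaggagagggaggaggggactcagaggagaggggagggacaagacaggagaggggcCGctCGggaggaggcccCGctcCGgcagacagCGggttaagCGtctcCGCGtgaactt
Six4: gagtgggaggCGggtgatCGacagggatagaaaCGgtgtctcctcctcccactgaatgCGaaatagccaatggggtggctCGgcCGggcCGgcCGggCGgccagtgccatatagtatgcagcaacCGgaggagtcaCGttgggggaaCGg
Nkx6-2: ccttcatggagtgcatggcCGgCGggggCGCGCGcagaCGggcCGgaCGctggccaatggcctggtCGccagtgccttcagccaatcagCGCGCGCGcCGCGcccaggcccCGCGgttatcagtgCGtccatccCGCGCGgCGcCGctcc
Lhx1: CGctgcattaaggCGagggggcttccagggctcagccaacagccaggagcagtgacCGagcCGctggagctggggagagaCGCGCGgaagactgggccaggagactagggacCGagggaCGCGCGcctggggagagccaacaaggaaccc
Vax2: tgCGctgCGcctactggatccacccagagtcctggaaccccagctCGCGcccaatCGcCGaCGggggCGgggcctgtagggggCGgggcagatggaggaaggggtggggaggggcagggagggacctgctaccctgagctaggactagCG
CG dinucleotides numbered 21, 9 and 12 in the windows of Lhx2, Meis3 and Six4 and 23, 11 and 10 in those of Nkx6-2, Lhx1 and Vax2, so CpG-rich and CpG-poorer promoters stood on both sides of the contrast. The median was 11 over the 21 members with a window and also 11 over the windows of 12444 protein-coding genes with a counted region on the TSS. The CCAAT box, searched as CCAAT and ATTGG on the strand shown and chosen after sequences of these promoters had been seen, had 2 matches in Nkx6-2, 1 each in Six4 and Vax2 and none in Lhx2, Meis3 and Lhx1. Of the 21 member windows 10 (47.6%) held a match, compared with 27.1% of the 12444.

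Among the LIM-homeodomain genes Lhx1, Lhx2, Lhx3, Lhx4, Lhx8 and Isl1 had a region, and among the Irx and Nkx genes Irx3, Irx4, Nkx1-1 and Nkx6-2 did. A region was also found at Six4 and Six5 and at the POU genes Pou3f1, Pou3f4, Pou4f1 and Pou4f3. Among the TALE genes Meis1, Meis3, Pbx2, Pbx3 and Pbx4 had a region, and in the remaining families Otx1, Gsx1 and Vax2. The Lhx1 region also held the TSS of 1500016L03Rik and the Irx3 region that of D230002A01Rik, so the mark there cannot be assigned to 1 gene. No counted region lay on the TSS of 27 genes: Alx1, Alx4, Gsx2, Irx1, Irx2, Irx5, Irx6, Isl2, Lhx5, Lhx9, Meis2, Nkx1-2, Nkx2-3, Nkx2-4, Nkx2-5, Nkx2-6, Nkx2-9, Nkx3-2, Nkx6-1, Nkx6-3, Pou3f2, Pou3f3, Pou4f2, Six2, Six3, Six6 and Vax1. This does not show that they lacked the mark, since only the shared regions were counted, and those held none of 6 microglial marker genes either.

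Region width ran from 388 bp at Lhx8 to 4857 bp at Pou3f1, with a median of 1584.5 bp compared with 2060 bp over the 13404 regions that overlapped any TSS. Member regions were rich in CpG: the ratio of observed to expected CpG had a median of 0.757 (range 0.340 to 1.03) and exceeded 0.6 in 19 of 24 (79.2%), against a median of 0.605 and a share of 51.4% over the TSS regions. GC content had a median of 62.9% against 54.2%. The 6 regions higher in Camk2a tChIP had a median CpG ratio of 0.655, the 10 lower ones 0.746 and the 8 not called 0.848, and the ranges overlapped (0.340 to 0.824, 0.649 to 1.03 and 0.459 to 0.997). Meis3 (0.340) and Pbx2 (0.459) had the lowest ratios and Pou4f1 (1.03) the highest.

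**Figure D1:**
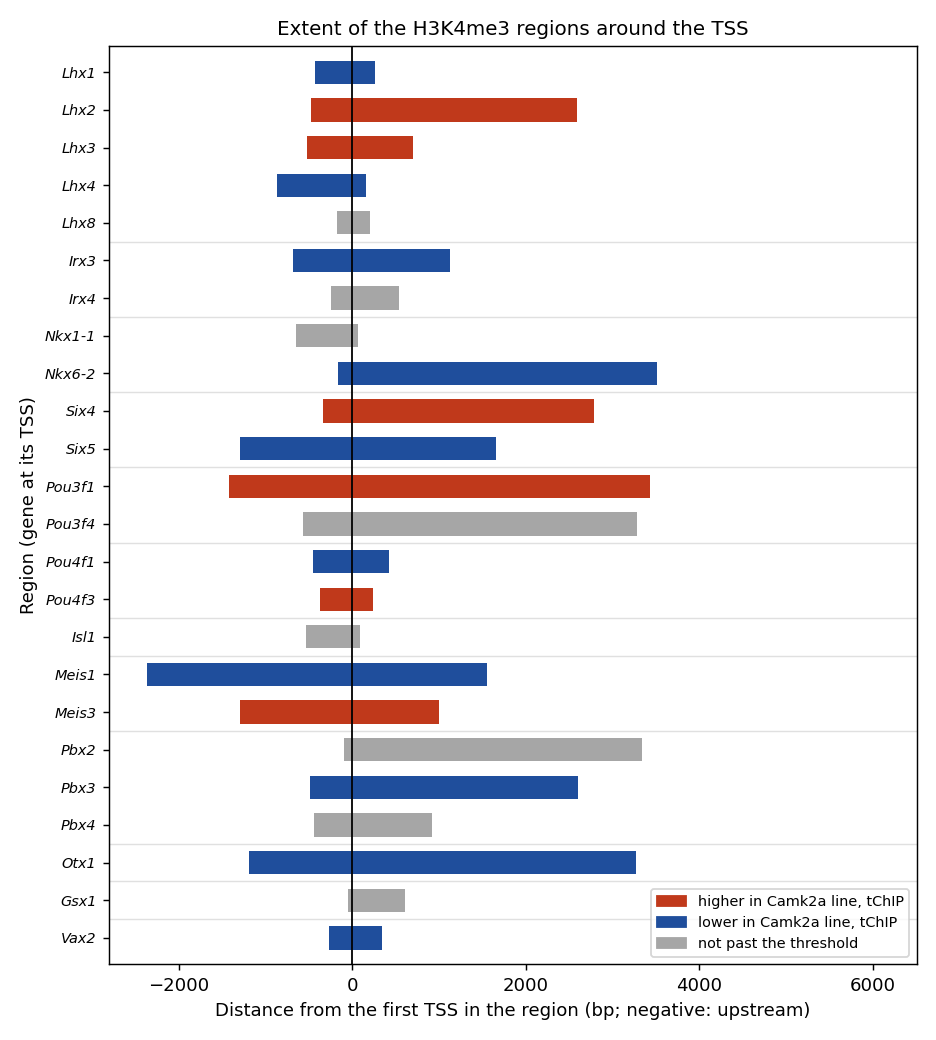
Horizontal bars give the extent of each of the 24 counted regions in bp from its first TSS (x axis, negative is upstream), ordered by family, with red for regions higher in the Camk2a than in the Rosa line in tChIP, blue for lower and grey for regions past neither threshold. Bars of both colours span short and long regions, from 606 bp (Vax2, lower) to 4857 bp (Pou3f1, higher), and the 8 grey bars run from 388 bp (Lhx8) to 3844 bp (Pou3f4).

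In Rosa single ChIP the Pbx regions were among the most densely marked members: Pbx2 had 37.2 CPM per kb of region and Pbx3 33.2, followed by Six4 with 26.0 and Pbx4 with 24.7. At the other end stood Lhx3 with 1.30 CPM per kb, Pou4f3 with 2.13, Irx4 with 2.22 and Vax2 with 2.37. Pbx2 and Pbx3 at the top were separated from Vax2 and Irx4 at the bottom by far more than the spread of 3 libraries, whereas neighbours such as Irx4 and Vax2 overlapped. In tChIP of the Camk2a line Six4 led with 43.8 CPM per kb, ahead of Pbx2 (39.5), Meis3 (33.9), Lhx2 (32.6) and Pbx4 (30.5), and Nkx6-2 (3.38), Lhx1 (5.37) and Vax2 (6.07) were the faintest.

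**Figure D2:**
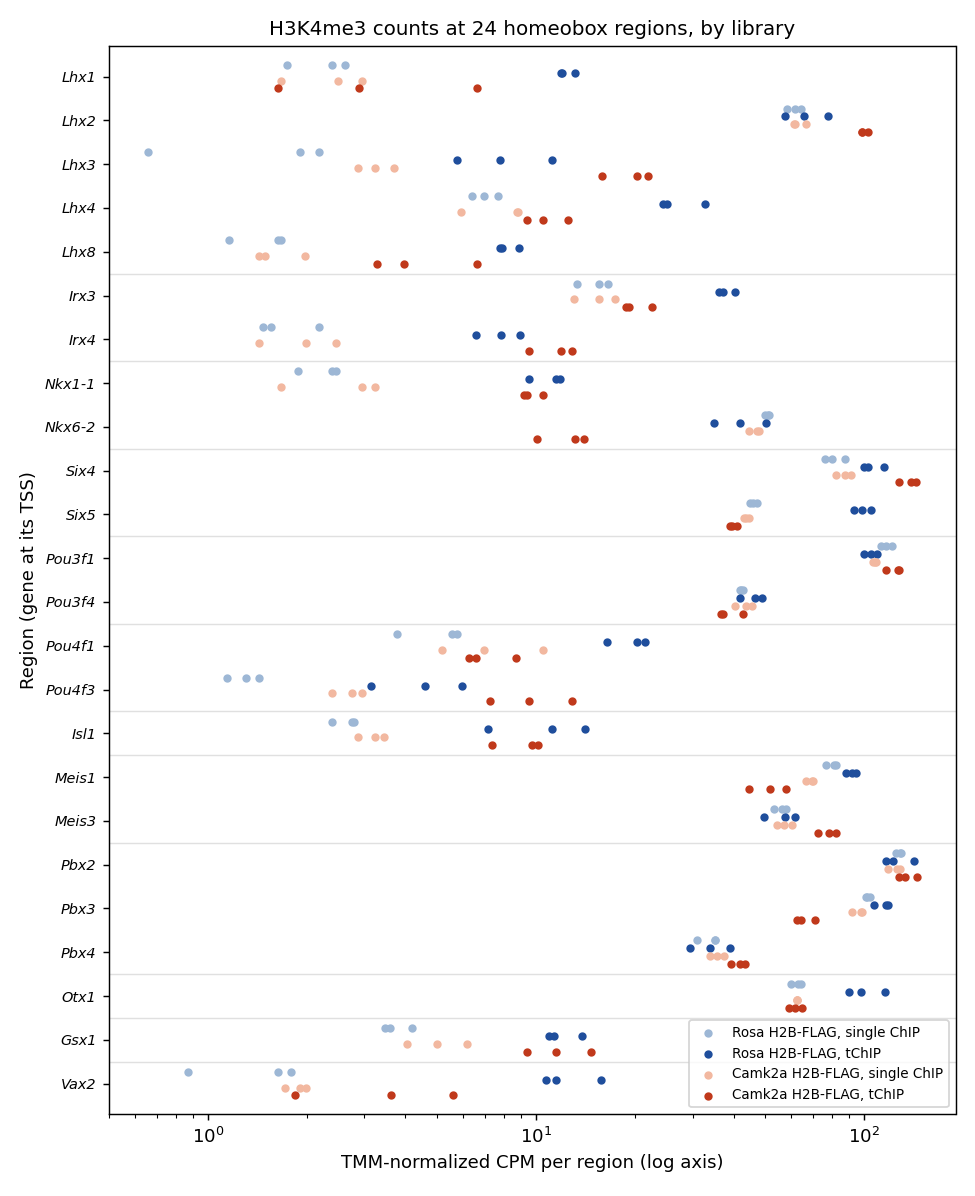
Each point is 1 library, with TMM-normalized CPM per region on a log x axis and the 24 regions on the y axis grouped by family; pale and dark blue are single ChIP and tChIP of the Rosa line, pale and dark red those of the Camk2a line. The pale points of both lines lie close together in most regions, and the dark points part to the left for regions such as Nkx6-2, Lhx1 and Six5 and to the right for Lhx2, Lhx3 and Meis3.

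The comparison of the lines in tChIP addressed how the mark in chromatin of Camk2a-positive neurons differed from that of all tagged cells. In the Camk2a line 6 member regions were higher and 10 were lower, and 8 were not called. Over all regions 17% were higher and 14.6% lower (31.6% in either direction), against 66.7% of the members in either direction. The 10 lower members included Nkx6-2, Lhx1, Vax2 and Pou4f1, with log2 fold changes from -1.75 to -1.44. The 6 higher ones included Lhx3, Pou4f3 and Lhx2. The median log2 fold change was -0.24 over the members and -0.00 over all regions. In 8 members the 3 Camk2a libraries all lay above the 3 Rosa libraries and in 11 all below, which held for 24.8% and 23.6% of all regions (48.4% in either direction). In bulk lysate a smaller share of cells with the mark and less mark per cell cannot be told apart.

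The LIM-homeodomain genes went in both directions. Lhx3, which specifies pituitary cells and spinal motor neurons, had 5.74, 7.75 and 11.2 CPM in Rosa tChIP and 22.0, 15.9 and 20.3 CPM in Camk2a tChIP. All 3 Camk2a libraries were above all 3 Rosa libraries, and the log2 fold change was 1.28 (SE 0.236, adjusted p = 4.16e-06 by edgeR). Raw counts there were small, 11 to 17 and 44 to 67 per library. Lhx2, which patterns the embryonic cortex and is expressed in upper-layer neurons, had 57.4, 65.6 and 77.4 CPM in the Rosa and 98.4, 98.5 and 103 CPM in the Camk2a line. These did not overlap either (log2 fold change 0.60, SE 0.0924, adjusted p = 4.87e-08 by edgeR). Lhx1, a gene of head and kidney formation, had 12.0, 11.9 and 13.1 CPM in the Rosa and 1.64, 2.89 and 6.63 CPM in the Camk2a line. The Camk2a libraries spread widely but all lay lower (log2 fold change -1.74, SE 0.317, adjusted p = 3.17e-06 by edgeR). Lhx4, the close relative of Lhx3 in the pituitary, moved the other way from it: 25.0, 24.5 and 32.8 CPM in the Rosa and 10.5, 9.38 and 12.5 CPM in the Camk2a line (log2 fold change -1.32, SE 0.193, adjusted p = 1.21e-08 by edgeR). A further pair of genes known from cholinergic and motor neurons, Lhx8 and Isl1, were not called. For Lhx8 the Rosa libraries had 8.87, 7.75 and 7.87 CPM and the Camk2a libraries 3.28, 3.97 and 6.63 CPM, with no overlap but an adjusted p of 0.0324 by edgeR. Without Camk2a tChIP replicate 3 it was called lower (log2 fold change -1.17, adjusted p = 0.00738). The Isl1 libraries overlapped, at 7.16 to 14.1 CPM and 7.37 to 10.2 CPM.

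Of the Irx and Nkx genes, Nkx6-2 and Irx3 were lower. Nkx6-2, which had the largest fall of the 24 members, is a factor of oligodendrocytes and their myelin, and it had 35.0, 50.1 and 42.0 CPM in Rosa tChIP and 13.1, 10.1 and 14.0 CPM in Camk2a tChIP (log2 fold change -1.75, SE 0.170, adjusted p = 5.87e-15 by edgeR). The highest Camk2a library had less than the lowest Rosa library. Irx3, which divides progenitor domains of the spinal cord, had 37.0, 40.6 and 36.1 CPM in the Rosa and 22.6, 18.8 and 19.2 CPM in the Camk2a line (log2 fold change -0.90, SE 0.151, adjusted p = 5.98e-07 by edgeR). Irx4, a gene of the heart ventricle, and Nkx1-1 were not called (log2 fold changes 0.54 and -0.16, adjusted p = 0.0931 and 0.643 by edgeR), although the Camk2a libraries of Irx4 (9.51, 11.9 and 12.9 CPM) all lay above its Rosa libraries (7.83, 8.95 and 6.56 CPM).

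Six4 and Six5 belong to a family that acts in muscle, kidney and sensory placodes, and they differed in opposite directions. Six4 had 103, 99.6 and 115 CPM in Rosa tChIP and 139, 127 and 144 CPM in Camk2a tChIP (log2 fold change 0.38, SE 0.0759, adjusted p = 1.51e-05 by edgeR). Its groups did not overlap. Six5, which lies beside the myotonic dystrophy kinase gene Dmpk, had 98.6, 105 and 93.2 CPM in the Rosa and 39.0, 39.7 and 40.9 CPM in the Camk2a line, tight in both groups and far apart (log2 fold change -1.31, SE 0.0997, adjusted p = 8.38e-20 by edgeR). In single ChIP Six5 had means of 45.9 CPM in the Rosa and 43.8 CPM in the Camk2a line. Its tChIP was higher than single ChIP in the Rosa line (log2 fold change 1.12, adjusted p = 2.04e-36 by edgeR). In the Camk2a line it was not called (-0.14, adjusted p = 0.248 by edgeR).

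The POU genes also divided. Pou4f1, which marks sensory neurons and the habenula, had 20.3, 21.5 and 16.4 CPM in Rosa tChIP and 6.56, 8.66 and 6.26 CPM in Camk2a tChIP (log2 fold change -1.44, SE 0.229, adjusted p = 1.44e-07 by edgeR). Pou4f3, a gene of inner-ear hair cells, had 3.13, 5.96 and 4.59 CPM in the Rosa and 9.51, 7.22 and 12.9 CPM in the Camk2a line, from 6 to 10 and 20 to 35 counts per library. These groups did not overlap, and the log2 fold change was 1.13 (SE 0.323, adjusted p = 0.00292 by edgeR). The call was lost without Rosa tChIP replicate 1 (adjusted p = 0.0468), without Camk2a tChIP replicate 3 (0.0371) and with DESeq2's Wald test (0.0335). Pou3f1, a factor of myelinating Schwann cells and of cortical projection neurons, had 105, 110 and 99.7 CPM in the Rosa and 127, 117 and 127 CPM in the Camk2a line. The groups did not overlap, but the difference was small (log2 fold change 0.24, SE 0.0765, adjusted p = 0.00718 by edgeR). The call was lost without Rosa tChIP replicate 1 (adjusted p = 0.0274) or 3 (0.0452), without Camk2a tChIP replicate 1 (0.0309) or 3 (0.0343) and under scaling by library totals (0.0627). Pou3f4, an X-linked gene of the inner ear, was not called, at 41.7, 48.9 and 46.6 CPM in the Rosa and 36.7, 37.2 and 42.7 CPM in the Camk2a line. The median log2 fold change over the 589 regions of the X chromosome was 0.04, and the Camk2a mice were males while the sex of the Rosa mice was not given.

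Among the TALE genes Meis1 and Pbx3 were lower and Meis3 was higher. Meis1, a partner of Hox proteins and a factor of striatal and blood-forming cells, had 88.2, 94.2 and 91.9 CPM in Rosa tChIP and 51.8, 57.7 and 44.6 CPM in Camk2a tChIP (log2 fold change -0.82, SE 0.0985, adjusted p = 2.56e-11 by edgeR). Meis3, known from hindbrain patterning, had 57.4, 49.5 and 61.7 CPM in the Rosa and 78.4, 82.3 and 72.6 CPM in the Camk2a line (log2 fold change 0.48, SE 0.101, adjusted p = 5.46e-05 by edgeR). These relatives parted, without overlap of the groups in either. Pbx3 had 107, 117 and 118 CPM in the Rosa and 70.9, 64.2 and 62.3 CPM in the Camk2a line (log2 fold change -0.78, SE 0.0865, adjusted p = 1.60e-12 by edgeR). Pbx2 and Pbx4 were not called, with log2 fold changes of 0.11 and 0.27 (adjusted p = 0.239 and 0.0995 by edgeR).

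Of the remaining families, Vax2 and Otx1 were lower and Gsx1 was not called. Vax2, which sets up the ventral eye, had 11.5, 10.7 and 15.7 CPM in Rosa tChIP and 5.58, 3.61 and 1.84 CPM in Camk2a tChIP, from 18 to 24 and 5 to 17 counts per library (log2 fold change -1.72, SE 0.308, adjusted p = 2.29e-06 by edgeR). Otx1, a gene of deep-layer cortical projection neurons, had 97.6, 116 and 89.9 CPM in the Rosa and 61.7, 64.6 and 58.9 CPM in the Camk2a line (log2 fold change -0.71, SE 0.0925, adjusted p = 4.78e-10 by edgeR). In both the groups stood apart. The single ChIP means of Otx1 were 62.3 CPM in the Rosa and 62.5 CPM in the Camk2a line. Gsx1, a gene of ventral forebrain progenitors, had 11.0, 11.3 and 13.8 CPM in the Rosa and 11.5, 9.38 and 14.7 CPM in the Camk2a line, which overlapped (log2 fold change -0.00, SE 0.236).

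**Figure D3:**
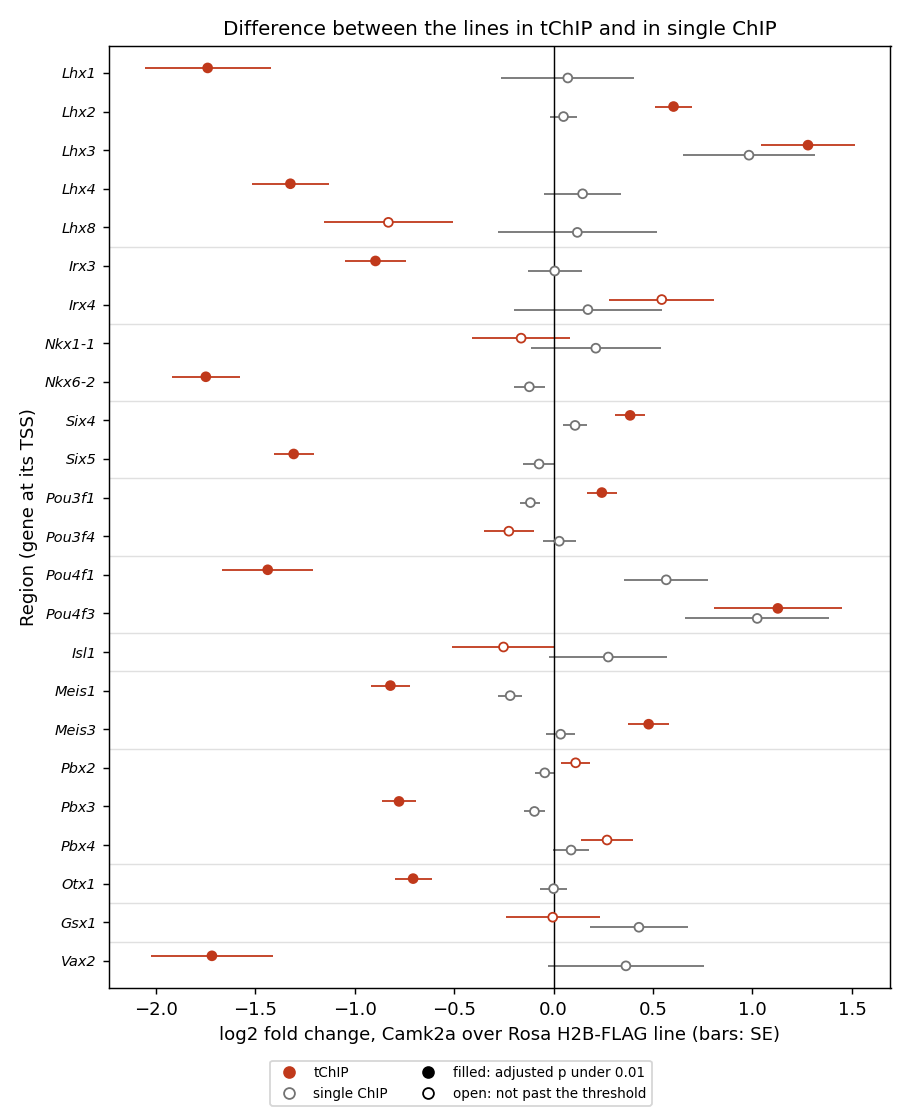
Points give the log2 fold change of the Camk2a over the Rosa line (x axis) for each of the 24 regions (y axis) in tChIP (red) and single ChIP (grey), with bars for the SE of the edgeR fit; filled points passed an adjusted p of 0.01. The 16 filled points are all red, from -1.75 at Nkx6-2 to 1.28 at Lhx3, and the grey points stay between -0.22 and 1.02.

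Summed over a family, the mark was lower in Camk2a than in Rosa tChIP without overlap of the libraries for Irx (log2 ratio of mean summed CPM -0.53), Nkx (-1.27), the pair of Six4 and Six5 (-0.21) and Pou4f (-0.49), as well as for Meis (-0.19), Pbx (-0.18), Otx (-0.71) and Vax (-1.78). The sums overlapped for Lhx (0.17), Pou3f (0.11), Isl (-0.25) and Gsx (-0.02), and no family lay higher without overlap. Opposite members made up several of these sums. The Lhx sum rested mainly on Lhx2 and the Nkx sum on Nkx6-2. Six4 with Six5 summed to 201 to 208 CPM in the Rosa and 167 to 185 CPM in the Camk2a line, which joined the higher Six4 with the lower Six5. In single ChIP the sums of the lines also stood apart for Pou4f, where the Camk2a line was higher (log2 ratio 0.69), opposite in sign to tChIP. They stood apart in the same direction for Isl (0.27) and Lhx (0.09), and with the Camk2a line lower for Nkx (-0.11), Meis (-0.11) and Pou3f (-0.08). The Pou4f and Isl regions had a mean under 10 CPM in single ChIP. Over the 4171 regions in that range the median log2 fold change between the lines in single ChIP was 0.23. Taken 1 by 1, 48.4% of all regions did not overlap between the lines in tChIP and 25% in single ChIP. The sums of Isl, Otx, Gsx and Vax are those of 1 region each and repeat its values. No test was made of a family sum.

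**Figure D4:**
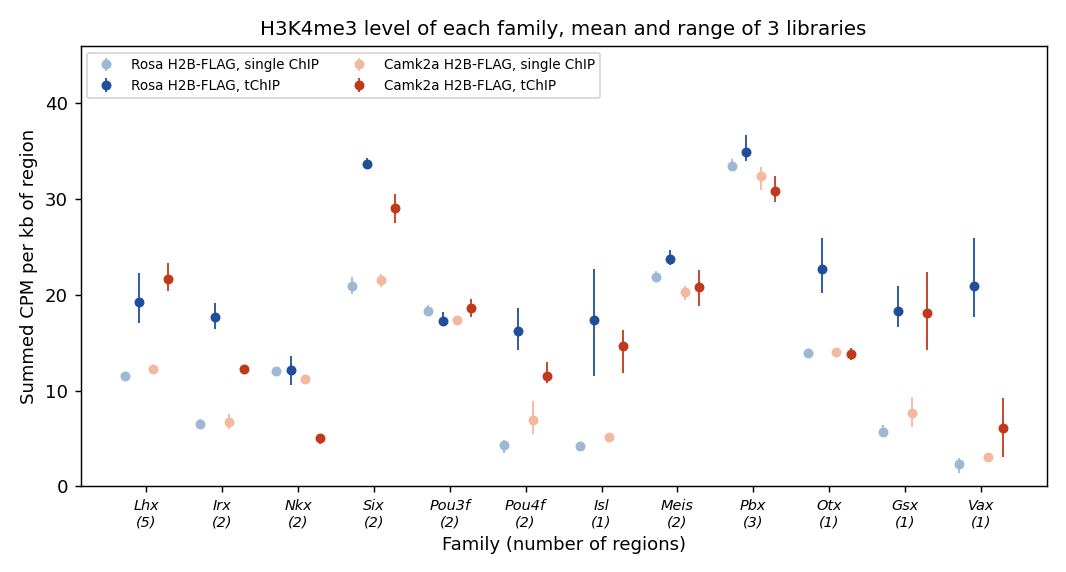
For each of the 12 families with a region (x axis, with the number of regions) points give the mean of 3 libraries and bars their range, as summed CPM per kb of region (y axis, from 0), for Rosa single ChIP (pale blue), Rosa tChIP (dark blue), Camk2a single ChIP (pale red) and Camk2a tChIP (dark red). The dark red point is below the dark blue one with separate ranges for Irx, Nkx, Pou4f, Meis, Pbx, Otx, Vax and the family of Six4, and the largest gap between the pale points of the lines, as a ratio, is that of Pou4f (4.28 in the Rosa and 6.92 in the Camk2a line).

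Marker lists of excitatory neurons and of other cell types were also compared between the lines in tChIP, where 17% of all regions were higher and 14.6% lower. Of 5 excitatory neuron regions all 5 were higher in the Camk2a line (summed 321 to 348 CPM in the Rosa and 732 to 787 CPM in the Camk2a libraries). Lower were 5 of 6 inhibitory neuron regions (153 to 167 and 81.9 to 89.2 CPM), 5 of 5 astrocyte regions (344 to 400 and 157 to 171 CPM) and 6 of 7 oligodendrocyte regions (351 to 374 and 213 to 228 CPM). So were 5 of 5 endothelial regions (239 to 243 and 66.8 to 77.4 CPM) and 4 of 5 mural and meningeal regions (163 to 190 and 41.5 to 49.7 CPM). Of 6 striatal neuron regions 2 were higher and 1 lower (207 to 217 and 239 to 263 CPM). The remaining oligodendrocyte region, 1 of 2 at Mbp, was higher (log2 fold change 1.18), and the other Mbp region was among the lower ones (-1.34). None of the 6 microglial genes had a counted region. In single ChIP 3 of the 7 oligodendrocyte regions were also lower in the Camk2a line, beside 1.22% of all regions. Their list summed to 460 to 479 CPM in the Rosa and 415 to 422 CPM in the Camk2a libraries. No region of the other marker lists was called in single ChIP. No marker region was at 0 in any library, and the part of these cell types in the differences at the homeobox regions was not tested.

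In single ChIP, which sampled the whole tissue, no member region was called higher or lower in the Camk2a line by edgeR, compared with 0.928% and 1.22% of all regions (2.15% in either direction). DESeq2's Wald test also called none. The unadjusted p was under 0.05 for 5 members, and the lowest adjusted p was 0.0161, for Meis1, with 82.0, 76.6 and 81.1 CPM in the Rosa and 69.4, 66.6 and 69.8 CPM in the Camk2a line (log2 fold change -0.22, SE 0.0616). In 3 members the Camk2a libraries all lay above the Rosa libraries and in 5, Meis1 among them, all below, which held for 12.3% and 12.7% of all regions (25% in either direction). Lhx3 and Pou4f3, higher in Camk2a tChIP, had the largest differences in single ChIP too. Lhx3 had 2.17, 1.91 and 0.654 CPM in the Rosa and 3.69, 2.86 and 3.24 CPM in the Camk2a line (log2 fold change 0.98, SE 0.332, adjusted p = 0.0507 by edgeR), and Pou4f3 had 1.30, 1.44 and 1.15 CPM and 2.95, 2.39 and 2.74 CPM (log2 fold change 1.02, SE 0.361, adjusted p = 0.0639 by edgeR). Neither passed the threshold, but in both the 3 Camk2a libraries lay above the 3 Rosa libraries. Both are among the 4171 regions with a mean under 10 CPM in single ChIP, of which 1.82% were higher and 0.048% lower. The median log2 fold change in that range was 0.23, and its 11 members ran from 0.07 to 1.02.

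Within the Rosa line, where nearly all cells carried the tag, tChIP was compared with single ChIP to see how the FLAG step itself shifted the counts. Of the members 15 were higher in tChIP and none was lower by edgeR or by DESeq2's Wald test, compared with 24.7% and 22.5% of all regions (47.2% in either direction). Among those not called, Nkx6-2 and Pou3f1 had an unadjusted p under 0.05 with a log2 fold change below 0 (-0.26 and -0.14, adjusted p = 0.0337 and 0.0656 by edgeR). The median log2 fold change was 1.22 over the members and -0.00 over all regions. In 17 members all tChIP libraries lay above all single ChIP libraries and in 1, Pou3f1, all below, against 30.2% and 32.1% of all regions (62.3% in either direction). Vax2 rose from 0.869, 1.79 and 1.64 CPM to 11.5, 10.7 and 15.7 CPM (log2 fold change 3.09, SE 0.305, adjusted p = 1.85e-22 by edgeR). Lhx1 rose from 1.74, 2.39 and 2.62 CPM to 12.0, 11.9 and 13.1 CPM (log2 fold change 2.45, SE 0.283, adjusted p = 1.01e-16 by edgeR). Lhx8 rose from 1.16, 1.68 and 1.64 CPM to 8.87, 7.75 and 7.87 CPM (log2 fold change 2.44, SE 0.344, adjusted p = 1.51e-11 by edgeR). In each the tChIP libraries stood far above the single ChIP libraries, which held only 6 to 20 counts.

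The share of regions that rose differed with their level in single ChIP, which is a description only, since the single ChIP values set the ranges and also enter the comparison. Of the 4171 regions with a mean under 10 CPM in single ChIP, 47.9% were higher in Rosa tChIP, with a median log2 fold change of 0.85. The 11 members in that range were all higher, with a median of 2.17 and a lowest value of 1.67. Of the 8507 regions at 50 CPM or more only 5.81% were higher and 42.6% were lower, and of the 8 members there 2, Six4 and Otx1, were higher and none was lower.

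Within the Camk2a line 11 members were higher and 3 lower in tChIP than in single ChIP (25.3% and 22.6% of all regions, 47.9% in either direction), with a median log2 fold change of 0.45 against -0.01. The tChIP libraries lay wholly above in 14 members and wholly below in 4, against 31.1% and 30.6% of all regions (61.6% in either direction). As in the Rosa line, the share varied with the level in single ChIP, with the same limit. Of the 4171 regions under 10 CPM 40.1% were higher and 6.83% lower, with a median of 0.58. Of the 11 members there, Lhx3, Irx4 and Nkx1-1 included, 7 were higher (median 1.47). At 50 CPM or more 16.8% of regions were higher and 32.3% lower, and of 8 members 4 and 2. Lhx3 rose from 3.69, 2.86 and 3.24 CPM to 22.0, 15.9 and 20.3 CPM (log2 fold change 2.56, SE 0.228, adjusted p = 1.83e-21 by edgeR). Irx4 rose from 2.46, 1.43 and 1.99 CPM to 9.51, 11.9 and 12.9 CPM (2.52, SE 0.291, adjusted p = 3.24e-14 by edgeR). Nkx1-1 rose from 2.95, 1.67 and 3.24 CPM to 10.5, 9.38 and 9.21 CPM (1.88, SE 0.284, adjusted p = 2.64e-09 by edgeR). None of these overlapped. Nkx6-2 fell from 44.6, 47.2 and 47.9 CPM to 13.1, 10.1 and 14.0 CPM (log2 fold change -1.90, SE 0.137, adjusted p = 2.53e-29 by edgeR). Pbx3 fell from 91.8, 98.5 and 97.9 CPM to 70.9, 64.2 and 62.3 CPM (log2 fold change -0.54, SE 0.0747, adjusted p = 8.89e-11 by edgeR). Meis1 fell from 69.4, 66.6 and 69.8 CPM to 51.8, 57.7 and 44.6 CPM (log2 fold change -0.41, SE 0.0870, adjusted p = 1.51e-05 by edgeR). In all 3 the tChIP libraries lay below the single ChIP libraries. The other members lower in Camk2a than in Rosa tChIP were Lhx1, Lhx4, Irx3, Six5, Pou4f1, Otx1 and Vax2. None of those was called here, and each was higher in Rosa tChIP than in Rosa single ChIP. The comparisons of tChIP with single ChIP share their tChIP libraries with the comparison of the lines in tChIP and are not independent of it.

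The interaction asked whether the difference between the lines depended on the kind of ChIP, and took in all 12 libraries. It was above 0 for 3 members (Lhx2, Meis3 and Pou3f1) and below 0 for 10, compared with 13.7% and 13.2% of all regions (26.9% in either direction). The median was -0.49 over the members and -0.00 over all regions. The term varied with the level in single ChIP, again a description only, since single ChIP values set the ranges and enter the term. Of the 4171 regions under 10 CPM, 2.54% were called above 0 and 16.4% below, with a median of -0.28. Of the 11 members there, Vax2, Pou4f1 and Lhx1 included, none was above and 4 were below (median -0.53). At 50 CPM or more 21% of regions were above and 5.76% below, and 3 of 8 members each way. The largest terms below 0 were those of Vax2 (-2.09, SE 0.517, adjusted p = 0.000359 by edgeR), Pou4f1 (-2.01, SE 0.319, adjusted p = 1.14e-08) and Lhx1 (-1.83, SE 0.476, adjusted p = 0.000773). Above 0 Lhx2 led (0.55, SE 0.115, adjusted p = 2.34e-05), followed by Meis3 (0.43, SE 0.125, adjusted p = 0.00258) and Pou3f1 (0.35, SE 0.0921, adjusted p = 0.000848). With library totals in place of TMM the terms of Pou3f1 and Meis3 were not called (adjusted p = 0.0173 and 0.0224), which made the split 1 above and 10 below 0. Meis3 was also not called without Rosa tChIP replicate 2 (adjusted p = 0.0327), Camk2a single ChIP replicate 2 (0.0103) or Camk2a tChIP replicate 2 (0.0147). For Lhx3 and Pou4f3 the interaction was 0.29 (SE 0.443, adjusted p = 0.664 by edgeR) and 0.10 (SE 0.573, adjusted p = 0.915), so their higher level in Camk2a tChIP was not shown to be particular to tChIP.

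**Figure D5:**
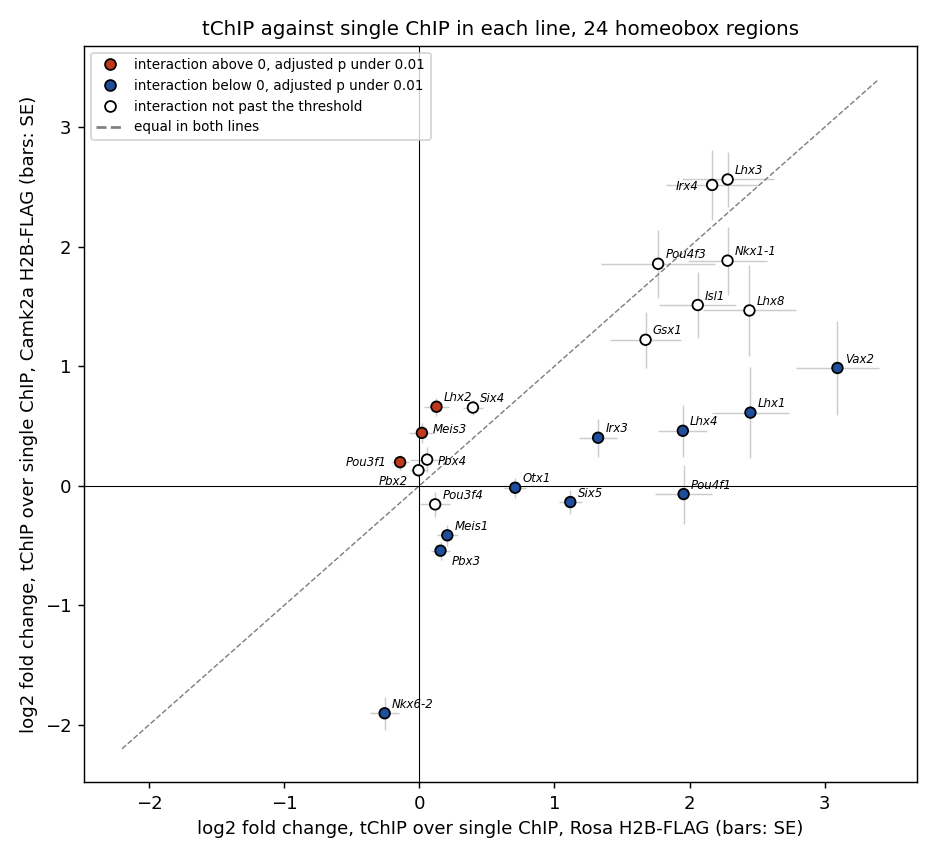
Each of the 24 regions is placed by its log2 fold change of tChIP over single ChIP in the Rosa line (x axis) and in the Camk2a line (y axis), with bars for the SE, and is red or blue where the interaction was above or below 0 at an adjusted p under 0.01. The blue points lie below the dashed line of equal change, with Pou4f1 at 1.96 and -0.07 and Vax2 at 3.09 and 0.99, while Lhx3 and Irx4 lie near it at high values in both lines.

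For 7 of the 27 genes with no region on the TSS, a counted region lay within 1000 bp of it. Alx4, a gene of the face and limb, had such a region 98 bp downstream, with a mean of 25.4 CPM in Rosa tChIP and 7.43 CPM in Camk2a tChIP (log2 fold change -1.77, SE 0.214, adjusted p = 3.36e-11 by edgeR). Vax1, which shares the eye and forebrain roles of Vax2, had its region 15 bp downstream, with 8.90 and 3.56 CPM (log2 fold change -1.30, SE 0.336, adjusted p = 0.000886 by edgeR). The regions near Gsx2, Irx1, Irx5, Nkx2-9 and Pou4f2 were not called, with log2 fold changes from -0.48 to 0.45, and that near Irx5 lay on the TSS of another gene, 4933436C20Rik.

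Of 29 partners and relatives of these families 23 genes had a region, 25 regions in all, of which 5 were higher and 7 lower in Camk2a tChIP, beside 17% and 14.6% of all regions. LIM partners held 4 of the 5 higher regions: Lmo3 (log2 fold change 1.06, SE 0.0923), Ldb2 (0.89, SE 0.108), Lmo1 (0.69, SE 0.132) and Ssbp3, and the fifth was the TALE gene Pknox2. Lmo proteins compete with LIM-homeodomain factors for Ldb1, and Ldb2 is the relative of Ldb1. Lower were 1 of 2 Pou2f1 regions (-1.93, SE 0.437), the TALE repressors Tgif2 (-1.20, SE 0.107) and Tgif1, the coactivator Eya1 (-1.09, SE 0.156), Dach1, Lmo2 and 1 of 2 Ldb1 regions. The 4 regions of Groucho corepressors, which many homeodomain factors recruit, were not called. In single ChIP none of the 25 regions was called by edgeR, beside 2.15% of all regions.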

How the data were processed

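H3K4me3 was measured by ChIP-seq in mouse cerebral cortex, and 12 libraries in 4 groups of 3 were used; the 12 input and FLAG libraries are not used here. The authors trimmed the reads, removed repeat reads with Bowtie2 2.1.0, aligned the rest to mm9 with Bowtie 1.0.0, removed duplicates with SAMtools (0.1.19 per the labels, another version in the study's methods), called peaks reproducible in triplicate and deposited the raw count of each library on 17993 shared regions (bedtools 2.17.0, per the labels and the study's methods). How peaks of different libraries were joined into 1 region list is not given in the sources used here. Removal of duplicates caps counts at narrow, deeply covered regions, and a count cannot be split between genes that share a region.

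Regions were matched to GENCODE M1 start sites on mm9. Some genes of these families are not reported here and enter no count of members. Groups were taken from the sample labels. Each comparison of 2 groups was fitted to the counts of its own 6 libraries, and the interaction to all 12, with edgeR 4.0.16 in R 4.3.3 (TMM, quasi-likelihood test, no filter, no covariate, Benjamini-Hochberg adjustment over 17993 regions, threshold 0.01). SE came from the fold change and the F statistic (absolute log2 value over the root of F). Printed CPM use TMM factors over all 12 libraries and the fits their own. The members and the gene lists were chosen with earlier results of these data known. Named members were the highest of each family, the 8 called regions with the largest change per direction between the lines in tChIP, up to 3 per direction in the other comparisons, and Lhx2, Meis3 and Six4, which the study had picked from these same libraries, so that their direction is not independent evidence. Others are named so that every member is accounted for, and were chosen after their values were seen. Lysates were made from 2 animals, but the sources used here do not say whether the 3 libraries of a group, or single ChIP and tChIP of 1 number, came from separate lysates, so p-values measure the spread between these libraries, which may be technical. Same-numbered libraries did not deviate together. Chi-square per degree of freedom between replicates was 1.03 to 1.09, where counting noise alone gives 1. No pair of libraries held the same counts, and each was counted as a sample, but these values do not show that the libraries came from separate lysates. Tested on simulated counts for the 17993 regions with changes of 1 and 0.5 on the log2 scale, the tChIP comparison of the lines recovered 84% and 59% of changed regions, that in single ChIP 87% and 66%, tChIP against single ChIP 84% and 56% (Rosa) and 87% and 62% (Camk2a), and the interaction 80% and 47%. In each simulation 100 regions were changed by each amount, drawn across levels, and the others were left unchanged. The rates therefore do not give the recovery at faint members or where many regions differ. Alternatives were DESeq2 1.42.0 (size factors and Wald test), scaling by totals, a filter on low counts, a replicate block, 1 fit to 12 libraries, a threshold of 0.05 and leaving out each library. Sequence features were read from the NCBIM37 (mm9) genome with pysam 0.24.0, and figures drawn with matplotlib 3.10.9.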

Additional observations from a re-analysis of the deposited data

Results flagged for a closer look

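For 13 members the difference between the lines was not the same in tChIP and in single ChIP by the test of that difference itself (edgeR's quasi-likelihood test of the interaction over 12 libraries, adjusted over all regions; 26.9% of all regions passed). The log2 difference in tChIP minus that in single ChIP was above 0 for Lhx2 (0.55, adjusted p = 2.34e-05), Meis3 (0.43, adjusted p = 0.00258) and Pou3f1 (0.35, adjusted p = 0.000848). Below 0 were the LIM genes Lhx1 (-1.83, adjusted p = 0.000773) and Lhx4 (-1.48, adjusted p = 1.64e-06), Irx3 (-0.91, adjusted p = 9.20e-05), Nkx6-2 (-1.64, adjusted p = 2.29e-15) and Six5 (-1.24, adjusted p = 1.70e-17). The same direction held for Pou4f1 (-2.01, adjusted p = 1.14e-08), Meis1 (-0.61, adjusted p = 2.32e-06), Pbx3 (-0.69, adjusted p = 9.67e-10), Otx1 (-0.71, adjusted p = 1.47e-08) and Vax2 (-2.09, adjusted p = 0.000359). The term of Lhx1 was not called without Camk2a single ChIP replicate 1 (-1.64, adjusted p = 0.0111) or without Camk2a tChIP replicate 1 (-1.44, adjusted p = 0.0110). For Six4 the term was 0.27 (adjusted p = 0.0194), and it was called without Rosa single ChIP replicate 2 (0.32, adjusted p = 0.00741), without Rosa tChIP replicate 3 (0.33, adjusted p = 0.00855) or without Camk2a tChIP replicate 2 (0.31, adjusted p = 0.00869).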

How the results depend on the processing

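In the tChIP comparison of the lines, 6 members were higher and 10 lower; DESeq2's Wald test gave 4 higher, without Pou3f1 and Pou4f3, and leaving out 1 library gave 4 to 6 higher and 10 to 11 lower. A filter that dropped 40% of regions, those lowest in summed count, and with them 13 of the 24 members (12 in the other comparisons) gave 3 higher and 4 lower there, 6 higher in Rosa and 5 higher in Camk2a tChIP against single ChIP, and an interaction above 0 for 1 and below 0 for 5. Fewer members were tested, and of those still tested Pou3f1 lost its call between the lines (adjusted p = 0.0209) and Pou3f1 and Meis3 their interaction (0.0127 and 0.0164). In that setting Pbx2 was called higher in Camk2a tChIP against single ChIP (0.00260), and 3 further members (Lhx2, Meis1 and Pbx3) were called higher in Rosa tChIP against single ChIP. With library totals the interaction was above 0 for 1 member. At an adjusted p under 0.05, 1 member was lower in single ChIP of the Camk2a line and 1 was lower in Rosa tChIP against single ChIP; there leaving out 1 library gave 0 to 1 (Nkx6-2 without Rosa tChIP replicate 2, log2 fold change -0.40, adjusted p = 0.00667). Small differences that were not called changed sign: over the leave-one-out fits the log2 fold change ran from -0.48 to 0.02 for Isl1 (0.0184 without Rosa tChIP replicate 1) and from -0.19 to 0.13 for Gsx1 (0.09 without Rosa tChIP replicate 3, 0.02 and 0.13 without Camk2a tChIP replicates 1 and 2). The causes were not tested. In the Camk2a line, tChIP against single ChIP, Lhx8 and Pou3f1 lost their call with DESeq2's Wald test (adjusted p = 0.0162 and 0.0452) and without Camk2a tChIP replicate 3 (0.0273 and 0.0259), and Vax2 gained one without that library (0.00497). Same-numbered libraries did not deviate together (correlations of their deviations from -0.01 to 0.03). Replicates spread little beyond counting noise, so these correlations cannot show whether the libraries were paired. With a replicate block the tChIP comparison gave 5 higher and 10 lower (Pou3f1, adjusted p = 0.0101 by edgeR), and no other member call changed. Counting only regions on no other gene's TSS, or adding the 7 nearby regions (chosen after seeing the data), kept every count within 1.5 times. Depth limits the 11 members under 10 CPM in single ChIP, which held 5 to 67 counts per tChIP library.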
